A study of Mus musculus with 6 samples.

Results

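The 45 genes described here encode proteins that carry a cell through mitosis and cytokinesis, from entry at the boundary of G2 and M to the separation of the daughter cells. They were taken by symbol from a fixed list of G2/M genes, and each symbol was found once among the 54532 mouse genes of the deposited table. They were placed in 8 groups by the role of their product. RNA-seq was performed on cardiac myocytes isolated from neonatal mouse hearts, and expression was given in FPKM, a fragment count divided by exon length and by the depth of the library. All cultures came from mice whose Rit1 gene was engineered so that Cre recombinase induces the M90I variant, Rit1 being the gene of a GTPase related to RAS. On day 3 after isolation they were infected with an adenovirus encoding GFP (AdGFP, labelled Rit1 +/+, 3 samples) or GFP-Cre (AdCre, labelled Rit1 M90I/+, 3 samples), and the labels number the samples 1 to 3 in both groups as biological replicates. RNA was harvested several days after infection.

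Several features limit the groups as a model. Cre was present only in the AdCre samples, and no wild-type culture that received AdCre was analysed here, so an effect of Cre and an effect of the variant cannot be told apart. The labels do not state what a replicate number marks. The study's methods describe collagenase digestion of newborn hearts and removal of cells that stuck to plastic, but no sort for a cell type.

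Entry into mitosis is driven by CDK1 bound to B-type and A-type cyclins, after which chromosomes condense, a spindle forms and kinetochores attach to its microtubules. The spindle assembly checkpoint restrains the anaphase-promoting complex until every chromosome is attached, and the central spindle then positions the contractile ring that divides the cell. Most of these genes are transcribed in G2 and M under the control of the MuvB complex with B-MYB and FOXM1 and of the CCAAT-binding factor NF-Y, and their summed RNA is widely read as a mark of dividing cells. Cardiomyocytes of the mouse divide before birth and largely leave the cell cycle in the days after it, some with nuclear division but no cytokinesis, while fibroblasts, endothelial cells and macrophages of the heart can go on dividing.

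The DNA around the start sites of the 45 genes is shown first, because the genes varied together among the samples. The windows are from RefSeq on GRCm38.p6 and run from 250 bases before the start of a gene to 50 bases after it, 300 bases in all. A window was found for 36 of the 45 genes. The letters TTTGAA, known as the cell cycle homology region that MuvB complexes bind, are in capitals below, and read as TTCAAA where the match was on the opposite strand. The letters of the NF-Y site, CCAAT, are in capitals too, and read as ATTGG where the match was on the opposite strand. A match of the first kind and a match of the second can share a single base. Of the genes with values in every sample below, the 6 of highest mean FPKM that hold both sets of letters are printed 5′ to 3′ in the direction of transcription, because these letters are what most of the windows had in common.
Cdc20 (chr4:118437294-118437593, minus strand): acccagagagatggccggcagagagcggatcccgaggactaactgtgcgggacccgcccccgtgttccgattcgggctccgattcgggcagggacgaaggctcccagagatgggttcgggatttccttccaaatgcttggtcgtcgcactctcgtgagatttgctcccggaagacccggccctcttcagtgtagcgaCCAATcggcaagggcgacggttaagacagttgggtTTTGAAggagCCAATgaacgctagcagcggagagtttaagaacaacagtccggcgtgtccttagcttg
Top2a (chr11:99024140-99024439, minus strand): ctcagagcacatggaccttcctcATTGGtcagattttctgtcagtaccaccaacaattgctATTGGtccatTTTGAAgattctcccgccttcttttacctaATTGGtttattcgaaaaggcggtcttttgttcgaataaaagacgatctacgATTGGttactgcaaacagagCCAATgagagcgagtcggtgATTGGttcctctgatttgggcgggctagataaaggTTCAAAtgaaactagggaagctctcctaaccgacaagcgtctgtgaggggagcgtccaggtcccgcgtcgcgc
Mki67 (chr7:135716330-135716629, minus strand): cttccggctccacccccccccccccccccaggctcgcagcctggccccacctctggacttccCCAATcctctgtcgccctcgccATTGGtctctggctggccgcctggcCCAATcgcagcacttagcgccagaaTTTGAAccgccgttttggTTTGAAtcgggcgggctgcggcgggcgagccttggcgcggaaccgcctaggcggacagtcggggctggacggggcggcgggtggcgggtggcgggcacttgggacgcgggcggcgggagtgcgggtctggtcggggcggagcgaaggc
Aurka (chr2:172370521-172370820, minus strand): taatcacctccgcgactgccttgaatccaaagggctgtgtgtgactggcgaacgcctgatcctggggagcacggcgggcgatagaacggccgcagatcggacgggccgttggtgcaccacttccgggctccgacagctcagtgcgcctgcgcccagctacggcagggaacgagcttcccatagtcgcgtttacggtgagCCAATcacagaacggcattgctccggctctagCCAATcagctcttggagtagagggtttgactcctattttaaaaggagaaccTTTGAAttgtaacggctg
Cdk1 (chr10:69352863-69353162, minus strand): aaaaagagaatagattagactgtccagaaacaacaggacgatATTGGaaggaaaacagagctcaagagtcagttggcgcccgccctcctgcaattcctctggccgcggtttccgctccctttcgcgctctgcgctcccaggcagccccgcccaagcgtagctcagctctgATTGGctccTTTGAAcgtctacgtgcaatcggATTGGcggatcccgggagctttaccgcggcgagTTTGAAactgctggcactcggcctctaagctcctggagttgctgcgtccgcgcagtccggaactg
Bub1b (chr2:118597961-118598260, plus strand): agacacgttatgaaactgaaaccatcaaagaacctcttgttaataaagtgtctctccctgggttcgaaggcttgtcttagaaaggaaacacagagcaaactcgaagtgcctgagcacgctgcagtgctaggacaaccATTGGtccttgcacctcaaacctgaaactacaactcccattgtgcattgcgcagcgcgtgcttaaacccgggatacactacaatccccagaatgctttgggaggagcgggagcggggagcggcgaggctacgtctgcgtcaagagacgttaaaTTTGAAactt
Cdc20 and Aurka each hold TTTGAA at 1 place and CCAAT at 2. Top2a holds TTTGAA at 2 places and CCAAT at 6, Mki67 and Cdk1 hold them at 2 and 3 places, and Bub1b holds each at 1.

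TTTGAA was present in 24 of the 36 windows (66.7%), compared with 20.2% of the 27025 windows of all genes in the table. It began between 60 bases before and 40 bases after the start in 22 of the 36 (61.1%), compared with 6.15% of all windows. CCAAT was present in 27 (75.0%, all windows 41.1%) and at 2 or more places in 18 of 36 (all windows 13.3%). Both sets of letters stood in the same window of 21 genes (58.3%, all windows 7.97%). TTTNGCGC, the letters bound by E2F, were present in 2 (5.56%, all windows 1.57%). The 12 genes without TTTGAA in the window were Birc5, Bub1, Ccnb1, Cdc25b, Cenpe, Cks2, Mad2l1, Nek2, Nuf2, Nusap1, Pttg1 and Tacc3. These matches describe the letters of the windows and are not evidence of binding.

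Between 25.3 and 32.4 M reads per sample were recovered from the FPKM values. Rit1 was detected at 7.66, 8.99 and 9.01 FPKM in AdGFP 1 to 3 and at 8.90, 9.10 and 9.58 FPKM in AdCre 1 to 3, a level that does not tell the 2 alleles apart. All 15 cardiomyocyte markers were expressed, with sums of 5650 to 9731 FPKM in AdGFP and 3192 to 5038 FPKM in AdCre, and all 15 had a lower mean of log2(FPKM + 0.1) in AdCre, with 0 of 15 called in limma and 8 of 15 called lower when the replicate number was a block (3.51% of all genes tested). Fibroblast markers summed to 3151 to 5967 FPKM in AdGFP and 3039 to 4556 FPKM in AdCre. In such bulk samples, fewer cells of a type and less RNA per cell cannot be told apart, and which cells the mitotic transcripts came from was not measured.

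All 45 genes were expressed, with a mean over the 6 samples of 2.26 FPKM (Ttk) to 41.2 FPKM (Cks2) and a median of 8.39 FPKM. Each had between 207 and 6222 reads in each sample. Their summed level was 363, 520 and 496 FPKM in AdGFP 1 to 3 and 375, 494 and 595 FPKM in AdCre 1 to 3. The sums of samples 1 of both groups were thus the lowest, and that of AdCre 3 was the highest.

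Whether mitotic transcripts changed when Rit1 M90I was induced was tested with limma on log2(FPKM + 0.1), a scale that understates the change of low genes, over the 13794 genes that averaged 0.5 FPKM or more. A gene was called at a Benjamini-Hochberg adjusted p under 0.05. None of the 45 genes was called (0 of 45), against 0.00725% of all genes tested, and the lowest adjusted p was 0.721 (Foxm1). An unadjusted p under 0.05 was reached by 0 of 45 genes, against 10.2% of all genes tested. With limma-voom on the recovered reads, 0 of 45 were called, as were 0 of all genes, and 0 had an unadjusted p under 0.05, against 10.5% of all genes. AdCre and AdGFP overlapped for each of the 45 genes, whereas the groups did not overlap for 15.4% of all genes tested. The exact two-sided permutation test, which cannot give a p under 0.1 with 3 samples in each group, gave no p under 0.3 for any of them. Overlap and these p-values also depend on the spread within a group, so alone they do not show that a change was absent. The median standard error (SE) of the 45 log2 fold changes was 0.24 here and 0.11 with the block described next.

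Same-numbered samples deviated together across all genes, so the replicate number was also fitted as a block, which compares AdCre with AdGFP within each number. With the block, limma again called 0 of 45 genes, where it called 6.15% of all genes tested (2.64% higher and 3.51% lower in AdCre). That share depended on the fit, being 0.0598% with low genes kept, 0.0% without the intensity trend, and 5.60%, 1.08% and 0.00725% without replicates 1, 2 and 3 in turn. The lowest adjusted p was 0.152 (Foxm1). An unadjusted p under 0.05 was reached by 2 of 45 (Foxm1 and Top2a), against 24.7% of all genes tested. With voom and the block, 0 of 45 were called, against 12.6% of all genes, and 8 had an unadjusted p under 0.05, against 28.1%.

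The fold changes were small. The log2 fold change of AdCre over AdGFP ran from -0.17 (Cenpa) to 0.29 (Foxm1), with a median of 0.09, beside -0.0022 over all genes tested. The mean of log2(FPKM + 0.1), called the log2 mean from here on, was higher in AdCre for 34 genes and lower for 11, and 49.6% of all genes tested had a higher log2 mean. Bub1 and Aurkb count as lower, with log2 fold changes of -0.0018 and -0.00044, although their mean FPKM was higher in AdCre. The median without AdGFP 1 was -0.07, with 12 of 45 genes higher, and without AdCre 3 it was -0.08, with 11 higher. Its sign thus changed without either of these 2 samples. Without AdCre 1 it was 0.28. Leaving out 1 sample splits a same-numbered pair. With both samples 1, 2 or 3 left out in turn, the blocked median was 0.11, 0.16 and 0.0085, with 37, 40 and 24 genes higher. When FPKM were rescaled to a common total in each sample (TPM), the median of all genes moved to 0.09 and that of the 45 genes to 0.18, with 42 genes higher. The distance between the 2 medians was 0.09 before and after that rescaling.

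The data bound the size of a change more closely than they show a direction. The 95% confidence interval of the log2 fold change excluded a 2-fold change in either direction for 42 of 45 genes without the block and for 45 of 45 with it. With the block it also excluded a 1.5-fold change for 43 of 45. The median half-width of the interval was 0.57 without the block and 0.26 with it. The blocked intervals rest on a pairing assumed from the values. In simulated data the blocked share of false calls exceeded the threshold, so these intervals may be too narrow.

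**Figure D1:**
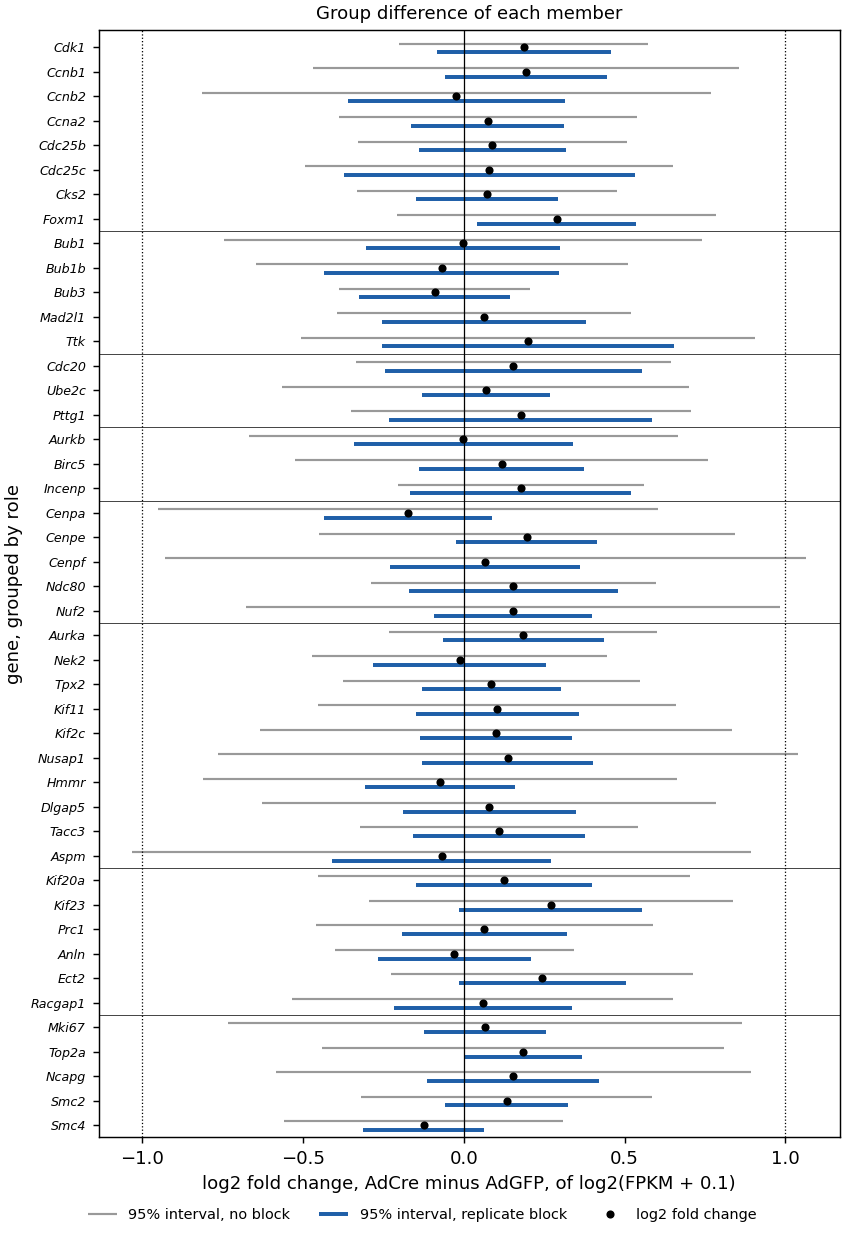
Log2 fold change of AdCre over AdGFP for each of the 45 genes, grouped by role, as points on an axis of log2(FPKM + 0.1) differences, with 95% confidence intervals without (grey) and with (blue) the replicate block and dotted lines at a 2-fold change. The points lie between -0.17 and 0.29, and 45 of 45 blocked intervals stay between the dotted lines.

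The pairs differed from each other. The median difference of the 45 genes was 0.07 in pair 1, -0.05 in pair 2 and 0.27 in pair 3 on the log2 scale. AdCre was the higher sample for 25 of 45 genes in pair 1 (all genes tested 50.5%), for 17 in pair 2 (47.7%) and for 42 in pair 3 (50.2%). AdCre was higher in all 3 pairs for 10 genes (Cdk1, Foxm1, Cenpe, Nuf2, Kif2c, Kif23, Ect2, Top2a, Ncapg and Smc2), where 23.9% of all genes tested were. It was lower in all 3 pairs for 2 genes (Cenpa and Smc4), where 24.5% of all genes tested were. The count of 10 was thus near the share of all genes.

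Among the 8 genes of mitotic entry, 7 had a higher log2 mean in AdCre and 0 were called in either fit. Foxm1 (GRCm38 chr6:128362967-128376146), which encodes a transcription factor that activates many genes of G2 and M, was measured at 5.01, 7.20 and 7.11 FPKM in AdGFP 1 to 3 and 6.32, 7.75 and 9.63 FPKM in AdCre 1 to 3. AdCre was the higher sample within each number, but AdCre 1 lay below AdGFP 2 and AdGFP 3. Its log2 fold change was 0.29 (SE 0.21, adjusted p = 0.721), the largest of the 45, with an adjusted p of 0.152 and an interval of 0.04 to 0.54 with the block. The catalytic kinase gene Cdk1 (chr10:69335146-69352938) was at 8.91, 11.1 and 9.78 FPKM in AdGFP 1 to 3 and 9.40, 11.4 and 13.4 FPKM in AdCre 1 to 3. AdCre 1 was below AdGFP 2 and AdGFP 3, and the log2 fold change was 0.19 (SE 0.16, adjusted p = 0.784).

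Ccnb1 (chr13:100778650-100786570), the gene of cyclin B1, was at 7.73, 13.4 and 12.2 FPKM in AdGFP 1 to 3 and 8.94, 13.3 and 16.0 FPKM in AdCre 1 to 3. Samples 1 were the lowest in both groups, by more than the groups differed, and the log2 fold change was 0.19 (SE 0.28, adjusted p = 0.889). Cks2 (chr13:51645232-51650660), which encodes a small subunit that binds CDK1, was the most abundant of the 45 per length, at 33.4, 46.9 and 40.2 FPKM in AdGFP 1 to 3 and 35.7, 43.5 and 47.2 FPKM in AdCre 1 to 3, and had a log2 fold change of 0.07 (SE 0.17, adjusted p = 0.944). Of the exonic 50-base words of Ccnb1, 23.4% also occur in other genes, chiefly the pseudogene Ccnb1-ps, and of those of Cks2, 29.7% occur in other genes, chiefly Gm15452, so their levels depend on how shared reads were assigned. The other 4 (Ccnb2 and Ccna2, further cyclins, and Cdc25b and Cdc25c, phosphatases that activate CDK1) had log2 fold changes from -0.02 (Ccnb2) to 0.09 (Cdc25b).

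The 5 genes of the spindle assembly checkpoint were 2 higher and 3 lower in log2 mean, with 0 called in either fit and a median log2 fold change of -0.0018. Bub1b (chr2:118598211-118641591), the gene of the checkpoint kinase-like protein BUBR1, was at 8.29, 12.9 and 9.75 FPKM in AdGFP 1 to 3 and 7.19, 10.1 and 12.5 FPKM in AdCre 1 to 3. AdCre was lower in pairs 1 and 2 and higher in pair 3, and the log2 fold change was -0.07 (SE 0.24, adjusted p = 0.968), a sign that changed under TPM. Bub3 (chr7:131560222-131571895), whose product carries BUB1 and BUBR1 to kinetochores, was at 10.4, 10.1 and 10.1 FPKM in AdGFP 1 to 3 and 10.3, 8.30 and 10.3 FPKM in AdCre 1 to 3. It was the steadiest of the 45, with its highest sample 1.25 times its lowest, and its log2 fold change was -0.09 (SE 0.13, adjusted p = 0.886). The log2 fold change was -0.0018 for Bub1, the gene of a checkpoint kinase, 0.06 for Mad2l1, whose product inhibits CDC20, and 0.20 for Ttk, the gene of the kinase MPS1.

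Of the 3 genes of the anaphase-promoting complex route and securin, all 3 had a higher log2 mean in AdCre and 0 were called. Cdc20 (chr4:118432901-118437352), the activator that directs the complex to securin and cyclin B, was at 20.8, 29.2 and 23.8 FPKM in AdGFP 1 to 3 and 23.4, 23.9 and 35.6 FPKM in AdCre 1 to 3. AdCre 3 was the highest sample and AdCre 2 lay below AdGFP 2 by more than AdCre 1 lay above AdGFP 1, and the log2 fold change was 0.15 (SE 0.21, adjusted p = 0.881). Of its exonic 50-base words, 10.4% also occur elsewhere, chiefly in Gm7856. Pttg1 (chr11:43420250-43426251), the gene of securin, was at 7.40, 13.4 and 8.74 FPKM in AdGFP 1 to 3 and 11.5, 11.3 and 9.67 FPKM in AdCre 1 to 3. AdCre 1 was not among its low samples, and its log2 fold change was 0.18 (SE 0.22, adjusted p = 0.868). Ube2c, the ubiquitin-conjugating enzyme of the complex, had a log2 fold change of 0.07.

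In the chromosomal passenger complex, which corrects attachments and then acts in cytokinesis, 2 of 3 genes had a higher log2 mean in AdCre and 0 were called. Its kinase gene Aurkb (chr11:69045647-69051664) was at 5.91, 9.53 and 7.66 FPKM in AdGFP 1 to 3 and 5.11, 8.41 and 10.0 FPKM in AdCre 1 to 3. Its level was 7.70 ± 1.81 FPKM over the AdGFP samples and 7.84 ± 2.5 FPKM over the AdCre samples (SD, n = 3), and the log2 fold change was -0.00044 (SE 0.28, adjusted p = 0.9999), with an interval of -0.34 to 0.34 with the block. The sign of this value changed under TPM, median centring, quantile normalization, a pseudocount of 1, voom and with recovered library sizes, so no direction is given. Incenp (chr19:9872296-9899551), which encodes the scaffold of the complex, was at 12.4, 15.4 and 11.8 FPKM in AdGFP 1 to 3 and 13.1, 14.3 and 17.5 FPKM in AdCre 1 to 3. AdGFP 3 was its lowest sample and AdCre 3 its highest, and the log2 fold change was 0.18 (SE 0.16, adjusted p = 0.796). Birc5, the gene of survivin, had a log2 fold change of 0.12.

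Among the 5 genes of the centromere and kinetochore, 4 had a higher log2 mean in AdCre and 0 were called. Cenpa (chr5:30666777-30674830), which encodes the histone variant that marks centromeres, was at 4.58, 9.84 and 8.38 FPKM in AdGFP 1 to 3 and 4.51, 7.49 and 7.77 FPKM in AdCre 1 to 3. Samples 1 were at 4.58 and 4.51 FPKM and all others at 7.49 FPKM or more. AdCre was lower in all 3 pairs, and the log2 fold change of -0.17 (SE 0.33, adjusted p = 0.925) was the lowest of the 45. Ndc80 (chr17:71496100-71526857), a subunit of the complex that binds spindle microtubules, was at 2.29, 2.74 and 2.70 FPKM in AdGFP 1 to 3 and 2.40, 2.74 and 3.59 FPKM in AdCre 1 to 3, with AdCre 3 alone above the other samples, and had a log2 fold change of 0.15 (SE 0.19, adjusted p = 0.859). The log2 fold change was 0.15 for Nuf2, its partner in that complex, 0.20 for the kinesin gene Cenpe and 0.07 for Cenpf, which encodes a large kinetochore protein.

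The 10 genes of spindle assembly were 7 higher and 3 lower in log2 mean, with 0 called in either fit. Aurka (chr2:172356190-172370535), the kinase gene of centrosomes and spindle poles, was at 9.11, 12.9 and 12.4 FPKM in AdGFP 1 to 3 and 11.5, 12.5 and 14.99 FPKM in AdCre 1 to 3. AdCre was lower in pair 2 and higher in the others, and the log2 fold change was 0.19 (SE 0.18, adjusted p = 0.807). Tpx2 (chr2:152847964-152895321), whose product activates Aurora A on the spindle, was at 14.3, 17.2 and 18.7 FPKM in AdGFP 1 to 3 and 13.8, 18.1 and 22.1 FPKM in AdCre 1 to 3. AdCre was lower in pair 1 and higher in the others, and the log2 fold change was 0.09 (SE 0.20, adjusted p = 0.939). The other 8 are the kinase gene Nek2, the motor genes Kif11 and Kif2c, and Nusap1, Hmmr, Dlgap5, Tacc3 and Aspm, which encode proteins of spindle microtubules or poles. Their log2 fold changes ran from -0.07 (Hmmr) to 0.14 (Nusap1).

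Of the 6 genes of cytokinesis, 5 had a higher log2 mean in AdCre and 0 were called. Ect2 (chr3:27097222-27153878), the exchange factor that activates RhoA at the cleavage plane, was at 5.13, 6.69 and 6.18 FPKM in AdGFP 1 to 3 and 5.41, 7.75 and 8.45 FPKM in AdCre 1 to 3. AdCre was higher in all 3 pairs, with AdCre 1 below AdGFP 2 and AdGFP 3, and the log2 fold change was 0.24 (SE 0.20, adjusted p = 0.766). Anln (chr9:22332012-22389188), the gene of anillin, which scaffolds the contractile ring, was at 13.4, 14.3 and 15.1 FPKM in AdGFP 1 to 3 and 11.3, 14.9 and 16.2 FPKM in AdCre 1 to 3. AdCre 1 was its lowest sample, and the log2 fold change was -0.03 (SE 0.16, adjusted p = 0.980), a sign that changed under TPM, voom and with recovered library sizes. Kif23 and Racgap1, which encode the partners of centralspindlin, had log2 fold changes of 0.27 and 0.06. The value was 0.06 for Prc1, whose product bundles the central spindle, and 0.13 for the kinesin gene Kif20a.

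The 5 genes of chromosome structure and condensation were 4 higher and 1 lower in log2 mean, with 0 called. Mki67 (chr7:135689784-135716361), the gene of the chromosome surface protein Ki-67, was at 9.25, 15.7 and 17.6 FPKM in AdGFP 1 to 3 and 9.21, 17.0 and 18.9 FPKM in AdCre 1 to 3. Samples 1 stood below all others in both groups, at 9.25 and 9.21 FPKM against 15.7 FPKM or more, and the log2 fold change between groups was 0.07 (SE 0.34, adjusted p = 0.979). Top2a (chr11:98992943-99024189), which encodes the topoisomerase that separates sister DNA, was at 12.6, 18.8 and 21.2 FPKM in AdGFP 1 to 3 and 14.3, 20.7 and 24.9 FPKM in AdCre 1 to 3. AdCre was higher in all 3 pairs, and the log2 fold change was 0.19 (SE 0.26, adjusted p = 0.889), with an adjusted p of 0.195 and an interval of 0.0035 to 0.37 with the block. Smc4 (chr3:69004738-69034623), a core subunit of condensin, was at 25.2, 31.0 and 33.2 FPKM in AdGFP 1 to 3 and 21.9, 27.9 and 32.7 FPKM in AdCre 1 to 3. AdCre was lower in all 3 pairs, and the log2 fold change was -0.12 (SE 0.18, adjusted p = 0.893). Its condensin partners Smc2 and Ncapg had log2 fold changes of 0.13 and 0.15.

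**Figure D2:**
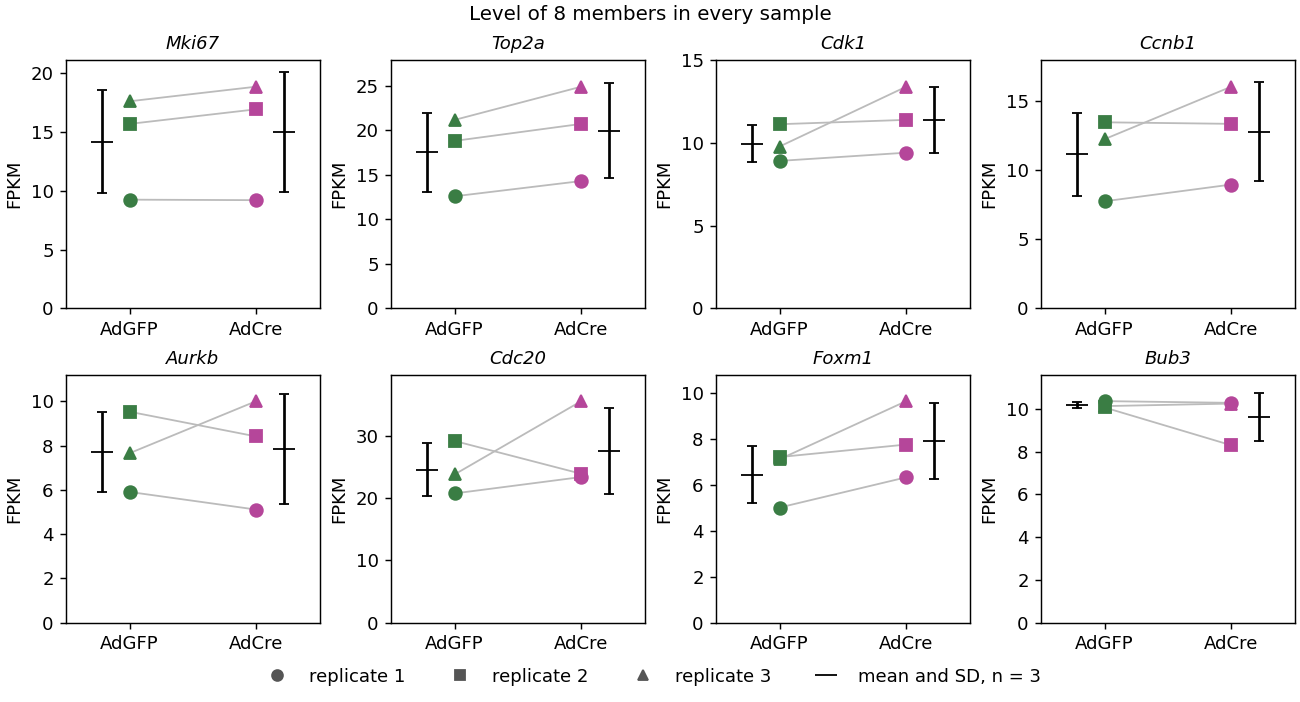
FPKM (vertical axis) of 8 of the 45 genes in each AdGFP (green) and AdCre (purple) sample, with symbols for the replicate number, lines between same-numbered samples and black bars for the group mean and SD (n = 3). Samples 1 of both groups lie below all others for Mki67, at 9.25 and 9.21 FPKM, while Bub3 is nearly level, and the groups overlap in each of the 8 panels.

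The samples numbered 1 had low mitotic transcripts in both groups. The lowest of the 6 samples was a sample 1 for 43 of 45 genes (AdGFP 1 for 24, AdCre 1 for 19), the exceptions being Bub3 and Incenp. Of the 3 pair means, that of replicates 1 was the lowest for 43 genes (38.5% of all genes tested) and the highest for 1 gene, Bub3 (41.0% of all genes tested). Both samples 1 lay below all 4 others for 42 genes, the third exception being Pttg1, whereas this held for 17.9% of all genes tested. The mean over replicates 2 and 3 was a median of 1.45 times that of replicates 1, from 0.935 (Bub3) to 2.17 (Cenpf). The highest sample was AdCre 3 for 37 of 45 genes.

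**Figure D3:**
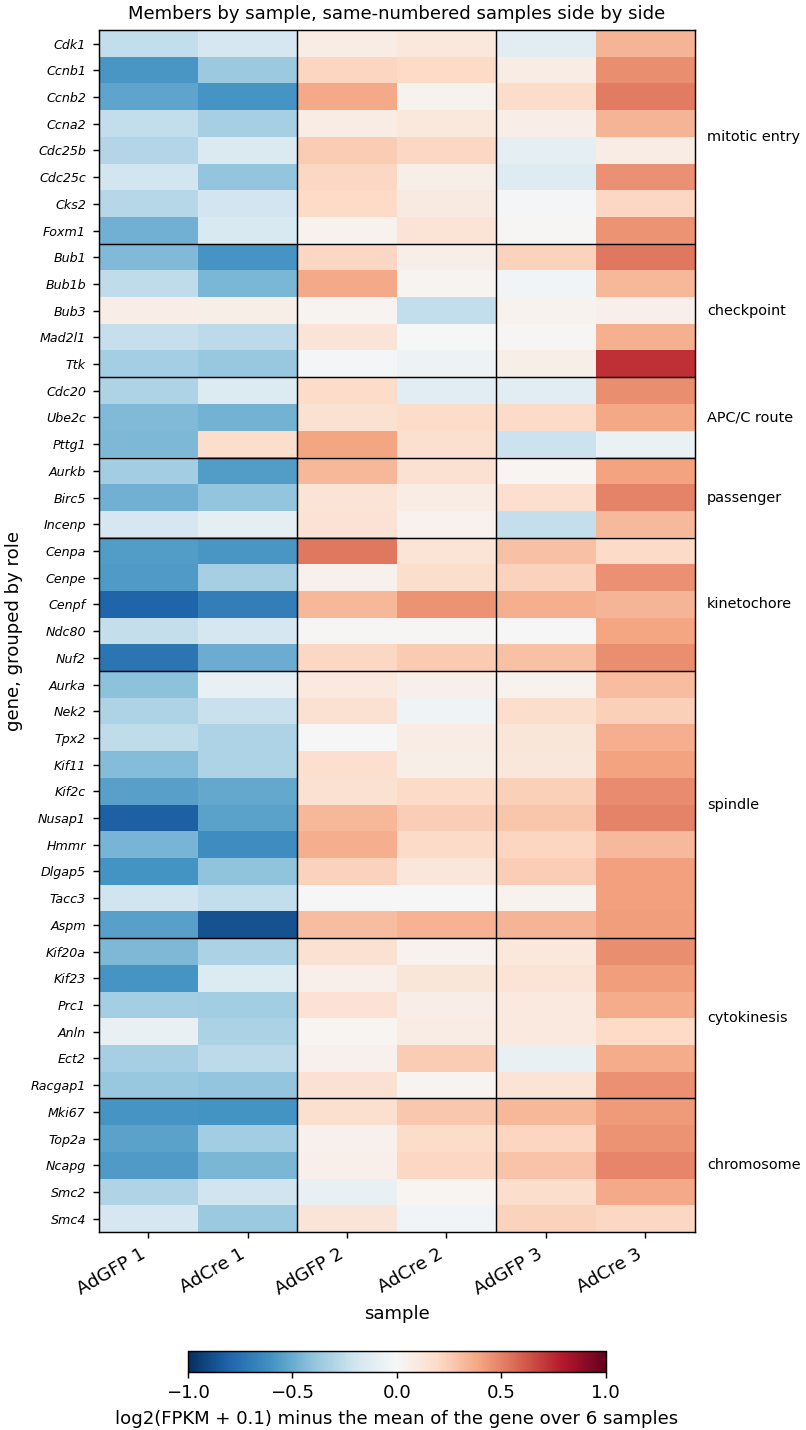
Heat map of log2(FPKM + 0.1) minus the mean of the gene over the 6 samples, with the 45 genes as rows grouped by role and same-numbered samples side by side as columns (blue below and red above the mean). Samples 1 of both groups are low across the roles and AdCre 3 is high for most genes, with the highest sample being AdCre 3 in 37 of 45.

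The spread between replicate numbers exceeded the difference between groups. The median range of the 3 pair means was 0.63 on the log2 scale, while the median size of the group difference was 0.10. Over all genes tested these were 0.39 and 0.17. The range exceeded the group difference for 45 of 45 genes, compared with 78.7% of all genes tested.

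A limma F test of the replicate number, in the fit with group and block, gave an adjusted p under 0.05 for 21 of 45 genes, where it did for 14.0% of all genes tested. An unadjusted p under 0.05 was reached by 36 of 45, against 37.2% of all genes. Mki67 had the smallest adjusted p (0.0129), with replicates 2 and 3 at 1.86 times replicates 1. Nusap1 (2.01 times, adjusted p = 0.0203), Top2a (1.58 times, adjusted p = 0.0208), Cenpf (2.17 times, adjusted p = 0.0208) and Nuf2 (1.89 times, adjusted p = 0.0208) followed. The F test takes in a difference between any of the 3 numbers. Without both samples 1 it called 0 of 45 genes (4.35% of all genes), with 2 at an unadjusted p under 0.05, without both samples 2 it called 20 (10.3%), with 37 at an unadjusted p under 0.05, and without both samples 3 it called 4 (2.86%). The count was 9, 2 and 0 without AdGFP 1, 2 and 3 in turn, where 7.51%, 2.58% and 0.928% of all genes were called. It was 12, 2 and 1 without AdCre 1, 2 and 3, where 15.5%, 1.62% and 2.98% were. It was also 0 when low genes were kept (0.229% of all genes) or the intensity trend was dropped (0.478%), with 34 and 31 of the 45 at an unadjusted p under 0.05.

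The replicate term was passed by at least 1 gene of every role, against 14.0% of all genes tested. It was passed by 5 of 5 genes of chromosome structure and condensation, 4 of 5 of the centromere and kinetochore and 6 of 10 of spindle assembly. It was also passed by 2 of 8 genes of mitotic entry, 1 of 5 of the checkpoint, 1 of 3 of the anaphase-promoting complex route, 1 of 3 of the chromosomal passenger complex and 1 of 6 of cytokinesis. No role was tested against that share, and 1 of 5 or 1 of 6 lies near it. Of the 24 genes with TTTGAA in the window 13 passed, with a median difference of replicates 1 from replicates 2 and 3 of -0.55 on the log2 scale. Of the 12 without it 6 passed, with a median of -0.53.

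Markers of other cell types differed between the same samples. Macrophage markers (9 of 10 tested, Ptprc being under 0.5 FPKM, none of the 10 at 0 in all samples) summed to 52.6, 218 and 287 FPKM in AdGFP 1 to 3 and 92.3, 294 and 359 FPKM in AdCre 1 to 3, and 9 of 9 were lowest in replicates 1. Fibroblast markers, with 10 of 12 lowest in replicates 1, summed to 3151, 4281 and 5967 FPKM in AdGFP and 3039, 3897 and 4556 FPKM in AdCre. Endothelial markers, with 8 of 12 lowest in replicates 1, summed to 104, 125 and 159 FPKM in AdGFP and 149, 167 and 220.0 FPKM in AdCre. Each of these sums was thus lowest in sample 1 of its group, as the mitotic sums were.

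Cardiomyocyte markers were highest in replicates 1 for 9 of 15, with sums of 9731, 6934 and 5650 FPKM in AdGFP 1 to 3 and 4057, 5038 and 3192 FPKM in AdCre 1 to 3. Mural markers summed to 865 to 1340 FPKM in AdGFP and 1025 to 1232 FPKM in AdCre, with 6 of 10 lowest in replicates 1, and epicardial markers to 264 to 433 and 387 to 505 FPKM, with 6 of 9. Red blood cell markers were near 0, with 0 of 6 at a testable level, 2 of 6 at 0 in all samples and sums of 2.27 FPKM or less. Between AdCre and AdGFP, limma called 0 markers of each of these lists without the block. With it, 8 of 15 cardiomyocyte markers were called lower, 4 of 12 endothelial and 2 of 9 macrophage markers higher, 1 of 12 fibroblast markers higher and 3 lower, 2 of 9 epicardial markers higher and 2 lower, and 0 of 10 mural markers, against 2.64% of all genes called higher and 3.51% lower. Without the intensity trend the blocked fit called none of these markers, as it called 0 of all genes, and without replicates 3 it called 1 gene in all. In simulated data the share of false calls with the block exceeded the threshold. The part of these cell types in the mitotic levels was not tested.

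**Figure D4:**
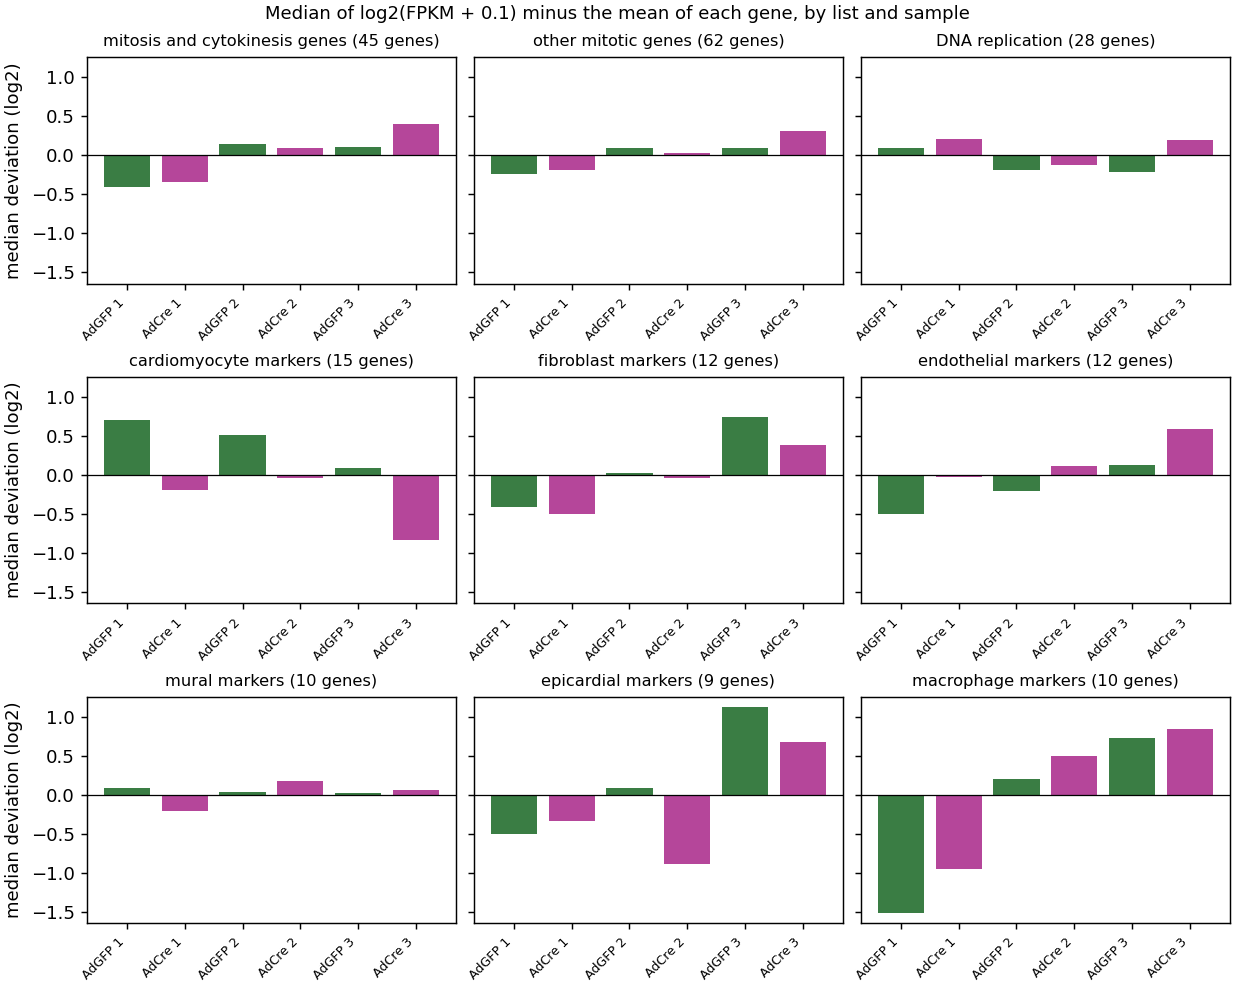
Median of log2(FPKM + 0.1) minus the gene mean over the genes of a list (bars, 1 for each of the 6 samples, AdGFP green and AdCre purple), for the 45 mitotic genes, 2 other cell cycle lists and 6 lists of cell type markers. The mitotic genes stand at -0.41 and -0.35 in samples 1 and at 0.40 in AdCre 3.

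The 62 other mitotic genes, a list outside the 45 of kinetochore, condensin, kinesin and anaphase-promoting complex genes, regulators such as Mybl2, Lin9 and Mastl, and other genes of G2 and M, had log2 fold changes from -0.34 to 0.46, with a median of 0.08. The median was -0.05 without AdGFP 1, -0.04 without AdCre 3 and 0.23 without AdCre 1, so its sign changed without the same single samples. With both samples of a number left out, the blocked median was 0.019 to 0.13. In log2 mean, 43 were higher and 19 lower in AdCre. Limma called 0 of 62 in either fit, against 0.00725% of all genes tested without the block and 6.15% with it. An unadjusted p under 0.05 was reached by 2 without the block (Cenpt and Fam83d, all genes 10.2%) and by 7 with it (all genes 24.7%). The mean of replicates 1 was the lowest of the 3 pair means for 51 of 62. The replicate term was passed by 11 of 62, against 14.0% of all genes tested. Their median difference of replicates 1 from the others was -0.34, compared with -0.54 for the 45.

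Brakes on and regulators of mitotic entry, a list of 8 genes of CDK1-inhibiting kinases, checkpoint kinases, stress-induced inhibitors and regulators of the anaphase-promoting complex, were 2 higher and 6 lower in log2 mean in AdCre. Limma called 0 of 8 in either fit, against 0.00725% of all genes tested without the block and 6.15% with it. An unadjusted p under 0.05 was reached by 1 without the block (Gadd45a, all genes 10.2%) and by 2 with it (Gadd45a and Wee1, all genes 24.7%). The median log2 fold change of the 8 was -0.10. Wee1, which encodes the kinase that inhibits CDK1, had a log2 fold change of -0.31, and the stress-induced inhibitor gene Gadd45a had -0.75, with differences of -1.57, -0.45 and -0.22 in pairs 1 to 3. Neither passed the test, and both were named after their values were seen, as was Pkmyt1, the gene of another kinase that inhibits CDK1 (0.13).

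Some transcripts could not be read free of their neighbours. At least 5% of the exon bases of 8 genes (Kif20a, Ube2c, Ncapg, Cdc25c, Ccna2, Prc1, Tacc3 and Nek2) lie under an exon on the opposite strand, from 6.60% (Nek2) to 29.3% (Kif20a). The use of strand in counting is not given in the sources used here, so reads of a gene and its antisense partner cannot be told apart.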

How the data were processed

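Messenger RNA of 6 samples was selected with poly-T beads and sequenced. The authors deposited FPKM for each sample in a column of its own. The submitters' processing notes name fastp, STAR 2.5, HTSeq 0.6.1 and mm10, and the annotation, the strand setting and the scaling of library sizes are not given in the sources used here. Symbols, exon lengths and coordinates are from GENCODE M21 (GRCm38), which held 54495 of the 54532 gene IDs. Multiplying FPKM by exon length gave whole reads (within 0.01 read) for 96.8% of genes, or 99.8% when other lengths were searched. Recovered reads (in M, megareads) came to 26.5, 26.0 and 25.3 M in AdGFP 1 to 3, and to 32.4, 25.9 and 27.0 M in AdCre 1 to 3, and the library sizes behind FPKM differed from them by relative factors of 0.949 to 1.05. No 2 replicates had counts within counting error of each other, so none was treated as a repeat deposit of another library.

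Log2(FPKM + 0.1) of the 13794 genes averaging 0.5 FPKM or more was fitted on group in limma 3.58.1 under R 4.3.3, using an intensity trend and Benjamini-Hochberg adjustment across every gene tested. The fit was tested on simulated data. Where same-numbered samples were made to deviate together, the fit without the block recovered no changed gene, and the share of false calls with the block exceeded the threshold. Because nothing in the labels says whether replicates came from separate cultures or animals, p-values measure only the spread between these samples. Deviations from the group means correlated at 0.568, 0.268 and 0.506 between same-numbered samples and at -0.497 to 0.036 otherwise. Pairing was therefore assumed, from the values alone. Blocked values are printed for Foxm1, Top2a, Aurkb, Ccne1 and Pcna, while the SE and adjusted p of the other single genes are unblocked. The block alters these. The SE of Mki67 was 0.34 without it and 0.077 with it, and the limma adjusted p of Cenpa was 0.925 and 0.371. The F test of the replicate number was chosen after the data were seen.

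The 45 genes and the gene lists were chosen with earlier results of these data known. Values in every sample are given for any gene called, for the most abundant gene and the gene of smallest p in each role group, and for Mki67, Top2a, Cdk1, Ccnb1 and Aurkb. Each of these choices was varied in turn: the pseudocount (1 or 0.01), the filter (none, 1 FPKM, or protein-coding genes), the scaling (TPM, median centring, quantile normalization, library sizes as recovered), the test (voom on recovered reads, no trend), the block, and the samples, leaving out each. Exact permutation tests were run in scipy 1.17.1.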

Additional observations from a re-analysis of the deposited data

How the results depend on the processing

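With 3 samples per group the tests could have missed changes smaller than the intervals given. The call of 0 of 45 genes held under each alternative run, with and without the replicate block. Without the block these runs called 0.0% to 0.029% of all genes, too few for a count of 0 of 45 to tell anything. With the block they called 0.0% to 12.6% of all genes. The block combined with another alternative, the library sizes as recovered and the replicate-number test were chosen after seeing the data. The count at an unadjusted p under 0.05 (0 of 45) became 2 with the replicate block, and with the block also 2 under both other pseudocounts, no filter, a filter at 1 FPKM, protein-coding genes and median centring, 1 without a trend, 3 under quantile normalization, 5 with recovered library sizes, 8 with voom and 9 with TPM, where 14.8% to 28.1% of all genes reached it. Without single samples or pairs it was 0 to 3. Among the 62 other mitotic genes the block called 1 with TPM (Cenpt, all genes 6.34%) and 2 with voom (Cenpt and Zw10, all genes 12.6%), where otherwise 0 were called. The replicate-number count (21 of 45, all genes 14.0%) was 36 with TPM (all genes 17.4%), 0 with no filter (0.229%) and 0 without a trend (0.478%). It was 0 to 20 without single samples or pairs (0.928% to 15.5%). The number of the 45 genes with a positive log2 fold change was 34 as deposited, 36 with a pseudocount of 1 or quantile normalization, 37 with median centring, 39 with recovered library sizes or voom and 42 with TPM. Among the genes given per sample, log2 fold changes reversed sign as follows, with the cause not tested. Bub1b was 0.020 with TPM. Aurkb was 0.0027 with a pseudocount of 1, 0.088 with TPM, 0.012 with median centring, 0.017 with quantile normalization, 0.061 with recovered library sizes and 0.045 with voom. Anln was 0.061 with TPM, 0.034 with recovered library sizes and 0.035 with voom. Without single samples or pairs, the log2 fold change ran from -0.047 to 0.43 for Ccnb1, from -0.052 to 0.19 for Cks2, from -0.28 to 0.14 for Bub1b and from -0.14 to 0.011 for Bub3. It ran from -0.057 to 0.37 for Cdc20, from -0.047 to 0.42 for Pttg1, from -0.20 to 0.28 for Aurkb and from -0.016 to 0.32 for Incenp. It ran from -0.50 to 0.075 for Cenpa, from -0.0021 to 0.28 for Ndc80, from -0.073 to 0.26 for Tpx2 and from -0.13 to 0.12 for Anln. It ran from -0.21 to 0.38 for Mki67, from -0.035 to 0.41 for Top2a and from -0.26 to 0.029 for Smc4.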

Other observations

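Genes of DNA replication, the phase before mitosis in the same cycle, were ordered otherwise across the replicate numbers. Of 28 genes listed, 25 had a higher mean of log2(FPKM + 0.1) in AdCre and 3 a lower one, with a median log2 fold change of 0.21. In limma without the replicate block, 4 of 28 reached an unadjusted p under 0.05 (all genes 10.2%) and 0 were called (all genes 0.00725%). With the block, 10 of 28 reached an unadjusted p under 0.05 (all genes 24.7%) and 2 were called higher, against 2.64% of all genes tested. These were Ccne1, the gene of cyclin E1, which drives entry into S phase, and Pcna, which encodes the sliding clamp of the replication fork. Ccne1 was at 11.4, 10.2 and 10.4 FPKM in AdGFP 1 to 3 and 19.5, 16.4 and 17.4 FPKM in AdCre 1 to 3, with a log2 fold change of 0.73 and a limma adjusted p of 0.144 without the block and 0.0145 with it. Pcna was at 39.0, 29.4 and 27.6 FPKM in AdGFP 1 to 3 and 54.4, 36.6 and 42.1 FPKM in AdCre 1 to 3, with a log2 fold change of 0.47 and a limma adjusted p of 0.492 without the block and 0.0390 with it. AdCre was thus the higher sample within each number for both genes. Neither blocked call held with all genes kept (adjusted p = 0.0557 for Ccne1 and 0.111 for Pcna) or without the trend (0.0628 and 0.110). Without replicates 1, 2 and 3 in turn, the blocked adjusted p was 0.0163, 0.0553 and 0.0838 for Ccne1 and 0.0642, 0.0896 and 0.161 for Pcna. Blocked calls are also subject to the excess of false calls seen in simulated data.

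Replicates 1 had the highest of the 3 pair means for 20 of the 28 replication genes and the lowest for 0, where 41.0% and 38.5% of all genes tested had. For the 45 mitotic genes these counts were 1 and 43. The summed level of the replication genes was 326, 268 and 263 FPKM in AdGFP 1 to 3 and 376, 285 and 345 FPKM in AdCre 1 to 3, while the mitotic sums were lowest in samples 1. The difference between the lists was not tested. In the promoter windows, TTTGAA was present in 3 of 23 replication genes (13.0%) and 31 of 55 other mitotic genes (56.4%), and TTTNGCGC in 9 of 23 (39.1%) and 5 of 55 (9.09%).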
